A study of Mus musculus with 4 samples.

Results

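The 5 actin genes Acta1, Actc1, Acta2, Actb and Actg1 were found by their symbols among the 32285 genes of the files, and each symbol matched 1 gene. They were measured in 4 heart sections profiled by Visium, which captures polyadenylated mRNA on a grid of barcoded spots and counts unique molecular identifiers (UMIs), so that each UMI stands for 1 captured molecule, and levels of different genes need no correction for transcript length. The hearts came from adult ICR mice aged 12 weeks whose left anterior descending coronary artery had been tied off, which gives a myocardial infarction (MI), and they were frozen at day 1, day 4, day 7 or day 14 after the ligation. Each day is 1 section of 1 mouse, all 4 mice had an infarct, and no section of an uninjured or sham-operated heart was analysed here, so days could be compared only as values with counting error and no test between days was possible.

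Actins form the thin filaments of muscle and the microfilaments of every other cell. The adult heart makes mainly cardiac α-actin (Actc1) and a little skeletal α-actin (Acta1), which is the main actin of adult skeletal muscle, is made in the fetal heart, and is known to return in stressed cardiomyocytes. Smooth muscle α-actin (Acta2) marks vascular smooth muscle and the contractile fibroblasts of a healing wound, whereas β-actin (Actb) and γ-actin (Actg1) build the cytoskeleton of nearly all cells and are plentiful in leukocytes and fibroblasts.

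Spots hold several cells of different types. To place the actins along the passage from tissue poor in cardiomyocyte transcripts to tissue rich in them, the spots of each section were ranked on the share of their UMIs from Myh6 and Myl2, the genes of α-myosin heavy chain and the ventricular regulatory light chain, and split into 4 tiers of equal size, with tier 1 holding the lowest shares and tier 4 the highest. After removal of spots with over 1% hemoglobin UMIs, 7503 of 9102 spots remained, 1679 to 2086 per section and 419 to 522 per tier. The sections held 9292678 to 15713779 UMIs. Median depth was 5515 to 9221 UMIs per spot in tier 4 and 2329.5 to 6524.5 in tier 1, where the spots of days 7 and 14 were the shallowest. Tier 1 reached up to a Myh6 and Myl2 share of 1.08%, 0.652%, 0.706% and 1.94% on days 1, 4, 7 and 14. The same tier thus held tissue of different cardiomyocyte content in different sections. Cardiomyocyte markers other than the ranking genes (Tnnt2, Tnni3, Actn2, Mb, Atp2a2 and Ckm) summed to 38204 to 44725 CPM (UMIs of the genes per 1000000 UMIs) in tier 4 and to 6458 to 28333 in tier 1. In tier 1 the highest sum was that of day 14, and the lowest that of day 4. Without the skeletal muscle spots of day 7, described below, the lowest sum in tier 1 was 5581. With them, Ckm in tier 1 of day 7 stood at 4519 CPM, above its 2814 in tier 4. The atrial genes Myl7 and Sln were at or below 1.36 CPM in every tier except for Sln in tier 1 of day 7, at 128. Myl4, also on the atrial list, stood at 21.8 CPM in tier 1 of day 7 and 1.92 in tier 4, and at 6.16 and 1.84 on day 4. Nppa, the last gene of that list, stood at 15764 CPM in tier 2 of day 4 and is described below. Sections shared 1572 to 1918 spot barcodes in each pair, since the barcodes mark positions on the slide.

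The day 7 section held 109 spots with 10 or more UMIs of the fast skeletal muscle genes Myh1, Tnnc2, Tnnt3 and Mylpf, 107 of them in tier 1 and 2 in tier 2. A further 9 spots of day 7 had 7 to 9 such UMIs and 5 of the 109 had 10 to 12. On the other days no spot had more than 5. Because skeletal muscle makes Acta1, values of day 7 are given with and without these 109 spots, with the ranks of the other spots kept.

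All 5 genes lie on the minus strand in mm10 (GRCm38; GENCODE vM21). Acta1 is at chr8:123891769-123894751, Actc1 at chr2:114047282-114053548, Acta2 at chr19:34241090-34255590, Actb at chr5:142903115-142906754 and Actg1 at chr11:120345690-120348542. Their coding sequences, of 1131 bases in the 3 muscle genes and 1125 bases in Actb and Actg1, were 81.7% to 88.6% identical between members. Counting here is at the 3′ end of the transcript, and in the last 400 bases, which hold the end of the 3′ untranslated region, members were 44.8% to 57.2% identical and no pair shared a run of 50 bases, whereas 4 of the 10 pairs shared such runs within the coding sequence. A530058N18Rik, annotated on the opposite strand across Actc1, had 0 UMIs in each section. Promoters of 2 actins are shown because the sarcomeric pair Acta1 and Actc1 carries the main contrast below and both belong to the classic targets of serum response factor (SRF), which binds the CArG box, CC followed by 6 bases of A or T and then GG. These are the 250 bases before the RefSeq start site in GRCm38.p6, 5′ to 3′ on the minus strand. The Actc1 window lies inside the GENCODE span of the gene given above, which starts further upstream than the RefSeq start site. Capitals mark CArG boxes and matches with 1 of the 6 inner bases changed to C or G.
Acta1, chr8:123894776-123895025: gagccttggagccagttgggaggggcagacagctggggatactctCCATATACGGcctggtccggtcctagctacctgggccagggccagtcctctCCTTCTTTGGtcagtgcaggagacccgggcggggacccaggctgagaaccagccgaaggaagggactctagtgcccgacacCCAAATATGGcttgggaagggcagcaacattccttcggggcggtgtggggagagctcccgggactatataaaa
Actc1, chr2:114052876-114053125: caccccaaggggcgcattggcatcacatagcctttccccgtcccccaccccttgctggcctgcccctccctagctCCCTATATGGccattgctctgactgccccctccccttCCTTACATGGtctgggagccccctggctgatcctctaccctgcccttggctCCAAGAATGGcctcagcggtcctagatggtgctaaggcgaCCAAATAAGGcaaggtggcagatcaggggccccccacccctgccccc
The Acta1 window held 1 CArG box, CCAAATATGG, 73 bases before the start site, and 2 near matches. The Actc1 window held 1 CArG box, CCAAATAAGG, 47 bases before the start site, and 3 near matches. The Actg1 window held 1 CArG box, CCATATATGG, 90 bases before the start site and no near match. The Acta2 window held no CArG box and 2 near matches, CCCTATATGG and CCTTGTTTGG. No window was available for Actb, so its promoter is not described. The pattern of the CArG box reads the same on both strands. Of 32851 promoter windows of this length, 1.47% held a CArG box and 8.59% held a box or a near match, and a match describes letters only.

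Actc1 was the most abundant actin, ranking 11 or 12 among all genes by UMIs in each section. In tier 4 it stood at 8320, 8169, 10157 and 10891 CPM on days 1, 4, 7 and 14. In tier 1 it stood at 9690, 4140, 1588 and 8751 CPM on the same days, and at 1931 on day 7 without the skeletal muscle spots. Tier 1 was thus lower than tier 4 on days 4, 7 and 14, by the most on day 7, whereas on day 1 it was 1.16-fold higher in CPM (95% counting interval 1.14 to 1.19) and 0.910-fold as high once the libraries were scaled by TMM (trimmed mean of M values). In summed spots, fewer cardiomyocytes and less RNA per cardiomyocyte cannot be told apart. Tiers 2 and 3 differed little from tier 4, with 7224 to 10814 CPM over the 4 sections.

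Acta1 ran the other way and over a far wider range. In tier 4 it stood at 195, 82, 291 and 456 CPM on days 1, 4, 7 and 14, so that the counting intervals of the 4 days did not overlap and day 14 was the highest. In tier 1 it stood at 5401, 1557, 8361 and 1125 CPM, above tier 4 of the same section on every day. The ratio of tier 1 to tier 4 was 27.7, 19.0, 28.7 and 2.47 in the order of days. Tier 1 reached to a higher Myh6 and Myl2 share on day 14 than on the other days, as given above. On day 1 Acta1 ranked 14 among all genes of tier 1 by UMIs and 527 in tier 4. Tier 2 held intermediate levels, with 2962, 1182, 924 and 791 CPM. On day 7 this held only with the skeletal muscle spots. Without them tier 2 stood at 906 CPM, above tier 1 at 410.

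**Figure D1:**
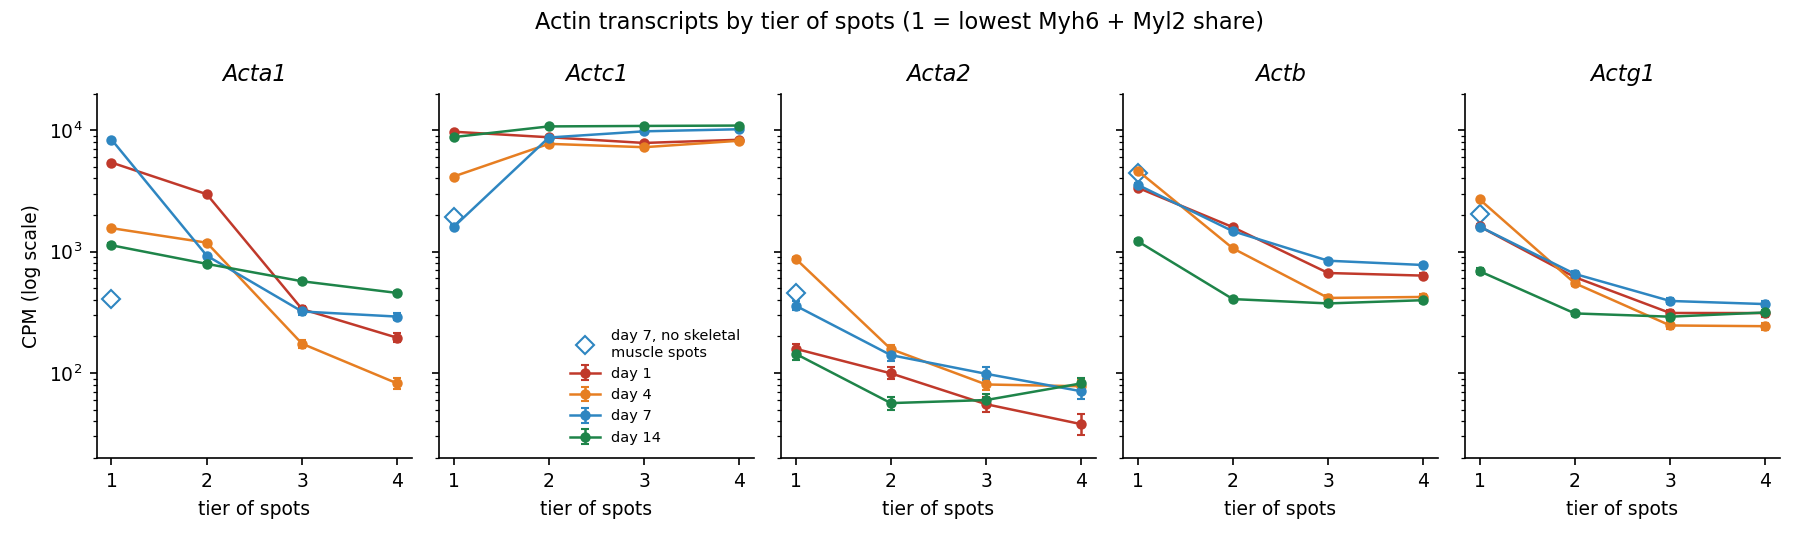
CPM (log scale) of each actin by tier of spots, with 1 line per section (days 1, 4, 7 and 14) and bars for the exact 95% Poisson interval of the summed count. Open diamonds give tier 1 of day 7 without the 109 spots rich in skeletal muscle genes, where Acta1 was 410 in place of 8361. Acta1, Acta2, Actb and Actg1 were higher in tier 1 than in tier 4 in all 4 sections, and Actc1 was lower on days 4, 7 and 14.

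The 109 skeletal muscle spots of day 7 carried most of the Acta1 of that section. They held 11929 of its 16289 Acta1 UMIs, 73.2%, at 25595 CPM, beside 863 of Actc1 and 558 of Myh6. Without them tier 1 of day 7 fell to 410 CPM of Acta1, 1.41-fold the level of tier 4 (95% counting interval 1.25 to 1.59), and tier 2 remained at 906. Skeletal muscle transcripts were also found at low level outside these spots. In the other spots of day 7 the 4 skeletal genes summed to 330, 97.6, 60.6 and 63.4 CPM in tiers 1 to 4, against 0.423 to 4.80 in any tier of the other days. At the ratio found inside the skeletal muscle spots, 0.614 Acta1 UMIs for each UMI of the 4 genes, those amounts would go with 202 of the 410 CPM of Acta1 left in tier 1 (49.3%), and with 6.61%, 11.6% and 13.4% of the Acta1 of tiers 2, 3 and 4. In tier 4 the 13.4% was 38.9 of 291 CPM. These amounts were not taken off the levels of day 7. It is therefore uncertain whether Acta1 outside the skeletal muscle spots stood higher in tier 1 than in tier 4. On days 1, 4 and 14 the same product came to at most 1.18% of Acta1 in any tier.

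Acta1 and Actc1 are the actins of striated muscle, so their ratio compares sarcomeric isoforms independently of library scaling. Acta1 UMIs per Actc1 UMI were 0.0234, 0.0100, 0.0287 and 0.0418 in tier 4 on days 1, 4, 7 and 14. In tier 1 they were 0.557, 0.376, 5.26 and 0.129, or 0.212 on day 7 without the skeletal muscle spots. The ratio was higher in tier 1 in 4 of 4 sections, by 4.74 ± 2.43 on the log2 scale (mean ± SD, n = 4 sections) and by 3.58 ± 1.64 without the skeletal muscle spots. The exact paired permutation test over sections, two-sided, gave p = 0.125 both times, the smallest p that 4 sections allow. Spots with more Acta1 than Actc1 UMIs numbered 65 of 1890 on day 1 (3.44%), with a median of 59 Acta1 UMIs in them, and 12 of 1679 on day 4, where the median was 1.5. On day 14 they numbered 5 of 2086. On day 7 they numbered 138 of 1848, 107 of them skeletal muscle spots, and the median in the other 31 was 2 Acta1 UMIs.

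A finer ranking in 20 bins of spots showed that Acta1 did not follow the loss of cardiomyocyte transcripts to its end. It peaked in bin 5 on day 1 at 5842 CPM, in bin 5 on day 4 at 3487, in bin 5 on day 7 without the skeletal muscle spots at 1626, and in bin 3 on day 14 at 1615. In bin 1, poorest in Myh6 and Myl2, it stood at 4053, 217, 262 and 117 CPM on those days. On days 4, 7 and 14 the lowest bin thus held far less Acta1 than the peak bin, and on day 1 the levels in bins 2 to 6 lay close together, at 5244 to 5842. Actc1 was at its lowest in bin 1 on days 4, 7 and 14, at 746, 900 (without the skeletal muscle spots) and 751 CPM. On day 1 it still stood at 7007 in bin 1 and peaked at 11205 in bin 5, the same bin as Acta1. Actb and Actg1 had their highest level in bin 1 or 2 of every section, once the skeletal muscle spots were left out.

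**Figure D2:**
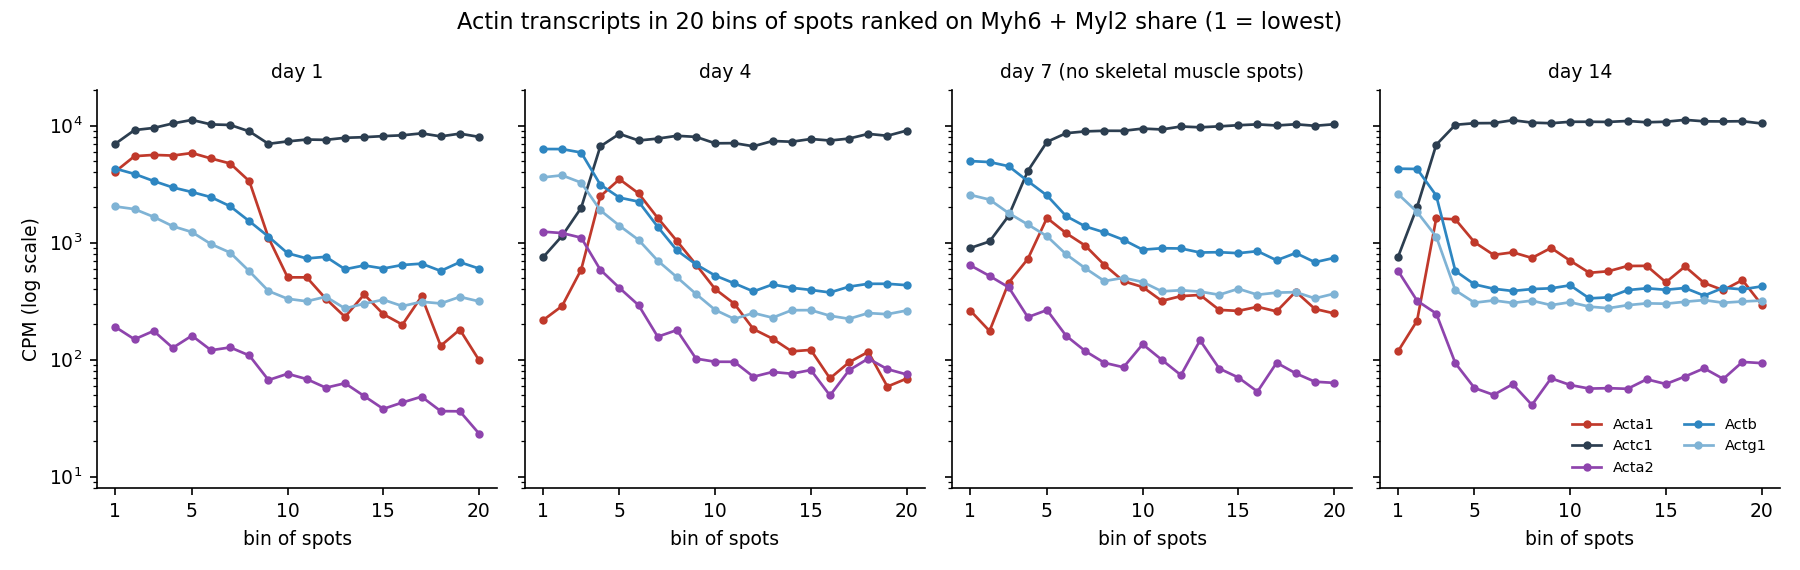
CPM (log scale) of the 5 actins in 20 bins of spots of equal size, ranked within each section on the share of Myh6 and Myl2 (bin 1 lowest), with 1 panel per day and day 7 drawn without the 109 skeletal muscle spots. Acta1 is low in bin 1 and peaks in bin 5 on day 4 (3487), in bin 5 on day 7 (1626) and in bin 3 on day 14 (1615), while Actb, Actg1 and Acta2 decline from the first bins.

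The fetal gene Nppa, encoding atrial natriuretic peptide, was high in a similar stretch of the ranking. It peaked in bin 5 on day 1 at 4769 CPM, in bin 7 on day 4 at 25278, in bin 5 on day 7 without the skeletal muscle spots at 8328, and in bin 3 on day 14 at 3171. The ratio of Acta1 to Actc1 peaked earlier in the ranking or in the same bins as Acta1, at 0.598 in bin 2 (day 1), 0.409 in bin 5 (day 4), 0.291 in bin 1 for day 7 without the skeletal muscle spots and 0.235 in bin 3 on day 14. Bin 1 of day 7 held 73 Acta1 and 251 Actc1 UMIs, and bin 1 of day 14 held 20 and 128, so these ratios rest on few molecules. In tier 1 of day 7, 49.3% of the Acta1 left would go with skeletal muscle transcripts, as given above. Their part in the ratio of bin 1 was not tested. In bin 5 of day 7, where Acta1 itself peaked, the ratio was 0.224. In bin 20 the ratio was 0.0123, 0.00757, 0.0241 and 0.0283 on days 1, 4, 7 and 14.

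**Figure D3:**
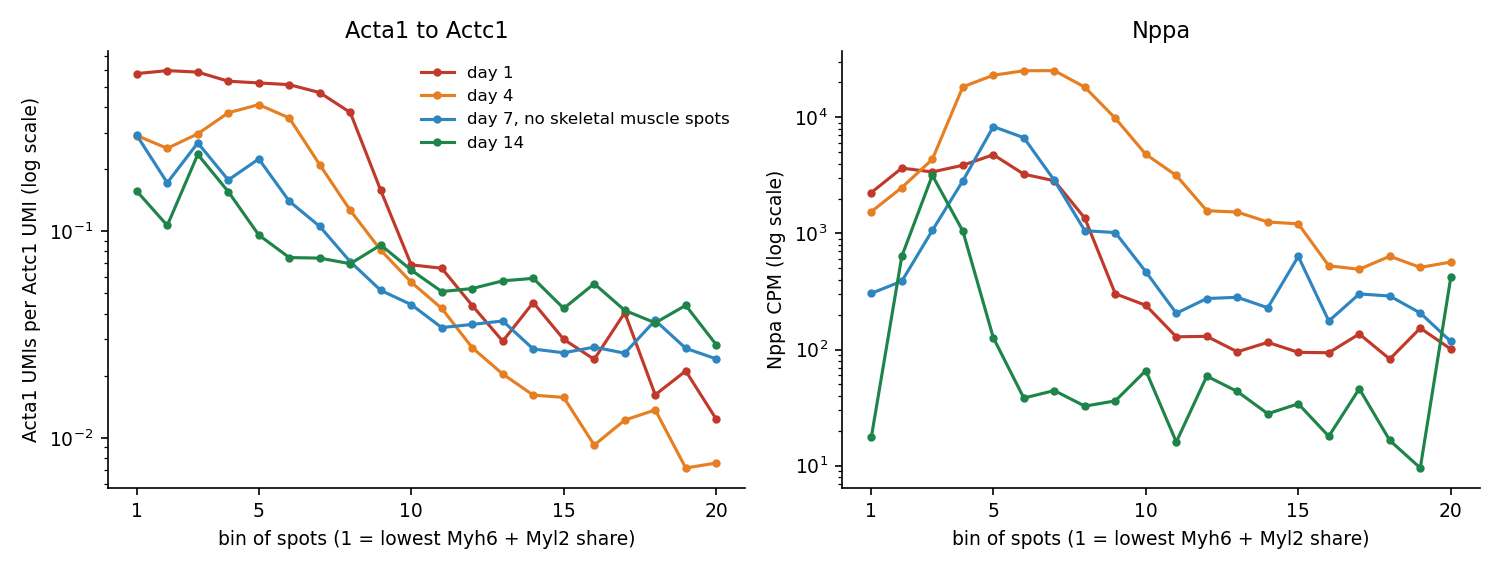
Acta1 UMIs per Actc1 UMI (left, log scale) and Nppa CPM (right, log scale) in the same 20 bins, 1 line per section, with day 7 drawn without the skeletal muscle spots. The ratio falls from 0.598 to 0.0123 between its peak and bin 20 on day 1 and from 0.235 to 0.0283 on day 14, and Nppa peaks between bins 3 and 7.

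Acta2 was the scarcest of the 5, with 1026, 3604, 1333 and 1193 UMIs on days 1, 4, 7 and 14. In tier 4 it stood at 38, 78, 71 and 82 CPM, and in tier 1 at 158, 874, 358 and 144, or 457 on day 7 without the skeletal muscle spots. Tier 1 was higher in all 4 sections, with the widest gap on day 4 (11.2-fold, 95% counting interval 9.96 to 12.7) and the narrowest on day 14 (1.75-fold). In bin 1 of the 20 bins Acta2 stood at 190, 1241, 638 (without the skeletal muscle spots) and 575 CPM on days 1, 4, 7 and 14. In tier 2 it was about 2-fold the level of tier 4 or more on days 1, 4 and 7, at 99, 157 and 140 CPM, but below it on day 14, at 56 (0.688-fold, 0.584 to 0.809).

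The 4 smooth muscle markers Myh11, Cnn1, Smtn and Lmod1 summed to 113 to 210 CPM in tier 1 and to 141 to 189 in tier 4, and most of these UMIs were of Smtn, which was lower in tier 1 in 4 of 4 sections. The other 3 were higher in tier 1 than in tier 4 of the same section in 4 of 4 sections, as Acta2 was. Myh11, smooth muscle myosin, stood at 17.9, 40.2, 21.1 and 20.6 CPM in tier 1 on days 1, 4, 7 and 14, against 6.54, 16.6, 14.2 and 14.0 in tier 4. Cnn1, calponin, stood at 6.21, 53.3, 19.0 and 8.64 CPM against 1.72, 2.37, 2.69 and 2.14. Lmod1, leiomodin, rested on 4 to 22 UMIs in tier 1 and 1 to 15 in tier 4. The part of smooth muscle cells in the Acta2 level was not tested. The myofibroblast markers Postn, Cthrc1, Col1a1, Fn1 and Tnc moved in the same direction as Acta2, summing to 1200 to 18949 CPM in tier 1 and to 128 to 442 in tier 4, and their part in the Acta2 level was not tested. The 20 spots with the most Acta2 in each section held 14.0% to 15.1% of its UMIs. Those spots were richer in Myh11 than the rest of the section, by description 170 to 315 against 10.6 to 18.2 CPM, and also in Col1a1, fibrillar collagen, 425 to 10913 against 179 to 2481.

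Actb and Actg1 moved side by side. Actb stood at 633, 423, 774 and 397 CPM in tier 4 on days 1, 4, 7 and 14, and at 3357, 4643, 3548 and 1217 in tier 1. Actg1 stood at 311, 243, 369 and 315 CPM in tier 4 and at 1608, 2688, 1604 and 689 in tier 1. Both were highest in tier 1 of day 4, at about 11-fold the level of tier 4, and lowest in tier 1 of day 14. Without the skeletal muscle spots, tier 1 of day 7 rose to 4446 for Actb and 2054 for Actg1, since those spots held only 1599 and 624. Their ratio changed little within a section, from 2.03 to 2.58 Actb UMIs per Actg1 UMI on day 1, from 1.69 to 1.94 on day 4 and from 2.10 to 2.25 on day 7, and more on day 14, from 1.26 in tier 4 to 1.77 in tier 1. Over single spots the Spearman correlation of their shares of UMIs was 0.645, 0.745, 0.563 and 0.362 on days 1, 4, 7 and 14, a description in which depth and the sparse counts of the spots are shared. The same measure was −0.379, −0.468 and −0.293 between Actc1 and Actb on days 4, 7 and 14, and 0.094 on day 1. Macrophage markers (Cd68, Lyz2, C1qa and Adgre1) summed to 844 to 5522 CPM in tier 1 and to 224 to 353 in tier 4, and their part in the levels of Actb and Actg1 was not tested.

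Together the 5 genes made a shifting mixture. In tier 4 Actc1 was 87.6%, 90.8%, 87.1% and 89.7% of actin UMIs on days 1, 4, 7 and 14. In tier 1 it was 47.9%, 29.8%, 10.3% and 73.4%, or 20.8% on day 7 without the skeletal muscle spots. In these tiers the place it gave up went to different isoforms in different sections. On day 1 Acta1 took 26.7% of tier 1 and Actb with Actg1 24.6%. On day 4 Actb with Actg1 took 52.7%, Acta1 11.2% and Acta2 6.29%. On day 7 without the skeletal muscle spots Actb with Actg1 took 69.9%, Acta2 4.91% and Acta1 4.41%, against 54.1% for Acta1 with them. On day 14 Actb took 10.2%, Acta1 9.44% and Actg1 5.77%. All actin UMIs together were at 13902 to 20214 CPM in tier 1 of days 1, 4 and 7 and 11926 on day 14, against 8993 to 12141 in tier 4, and without the skeletal muscle spots tier 1 of day 7 held 9298.

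**Figure D4:**
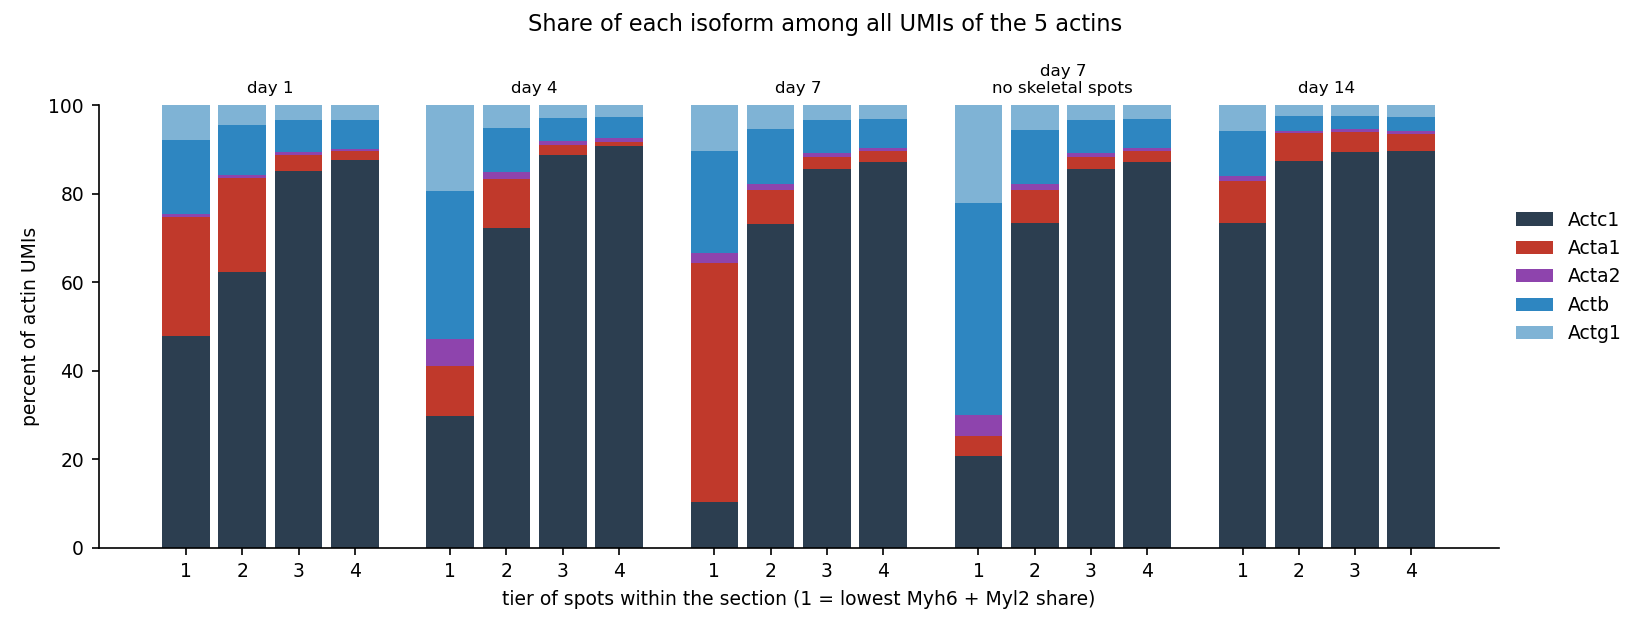
Percent of all UMIs of the 5 actins that came from each isoform, by tier of spots and section, with day 7 drawn with and without the 109 skeletal muscle spots. Actc1 makes up 87.1% to 90.8% of each bar in tier 4 and 10.3% to 73.4% in tier 1.

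Over the 4 sections the share of actin UMIs in tier 1 minus that in tier 4 was 23.1 ± 20.7 percentage points for Acta1 (mean ± SD, n = 4 sections), −48.5 ± 26.3 for Actc1, 2.01 ± 2.35 for Acta2, 15.5 ± 9.65 for Actb and 7.93 ± 6.04 for Actg1. Each difference had the same sign in 4 of 4 sections. The 5 shares are parts of 1 whole, so a lower share of Actc1 raises the others as a group and the 5 differences are not separate results. Genes that vary with cardiomyocyte content, as Actc1 does, also differ between the tiers by construction of the ranking. Without the skeletal muscle spots the difference of Acta1 was 10.6 ± 9.96, and its lowest value, on day 7, was 1.92. There 49.3% of the Acta1 left in tier 1 and 13.4% of that in tier 4 would go with skeletal muscle transcripts outside those spots. These were not taken off, so the sign on day 7 is uncertain. The exact paired permutation test, two-sided, gave p = 0.125 for each of the 5, and it could give no smaller value.

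The level of each gene was then tested across sections on the UMIs summed per section and tier, in 1 edgeR quasi-likelihood fit with the section as a block, which asks for a difference shared by the 4 days. Genes that vary with cardiomyocyte content differ between the tiers by construction of the ranking, and 3225 of 4767 genes, 67.7%, differed between tiers 1 and 4 at an adjusted p under 0.05, 35.2% higher and 32.4% lower in tier 1. All 5 actins were among them, which is to be read against those shares. Acta1 was higher by 3.54 ± 0.64 on the log2 scale (SE; edgeR adjusted p = 0.000435), and by 2.34 ± 0.66 without the skeletal muscle spots (edgeR adjusted p = 0.00720). Neither fit took off the skeletal muscle transcripts found outside those spots on day 7. Actb was higher by 2.03 ± 0.24 (edgeR adjusted p = 4.31e-05), Actg1 by 1.90 ± 0.25 (edgeR adjusted p = 8.21e-05) and Acta2 by 1.79 ± 0.32 (edgeR adjusted p = 0.000416). Actc1 was lower, at −1.15 ± 0.40 (edgeR adjusted p = 0.0221), and this call was lost when total UMIs took the place of TMM (−0.75, adjusted p = 0.0835), without the day 4 section (−0.92, adjusted p = 0.140) and without the day 7 section (−0.66, adjusted p = 0.113). With total UMIs the median of all genes moved from 0.05 to 0.46 on the log2 scale and the split of calls from 1679 higher and 1546 lower to 2578 and 938.

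**Figure D5:**
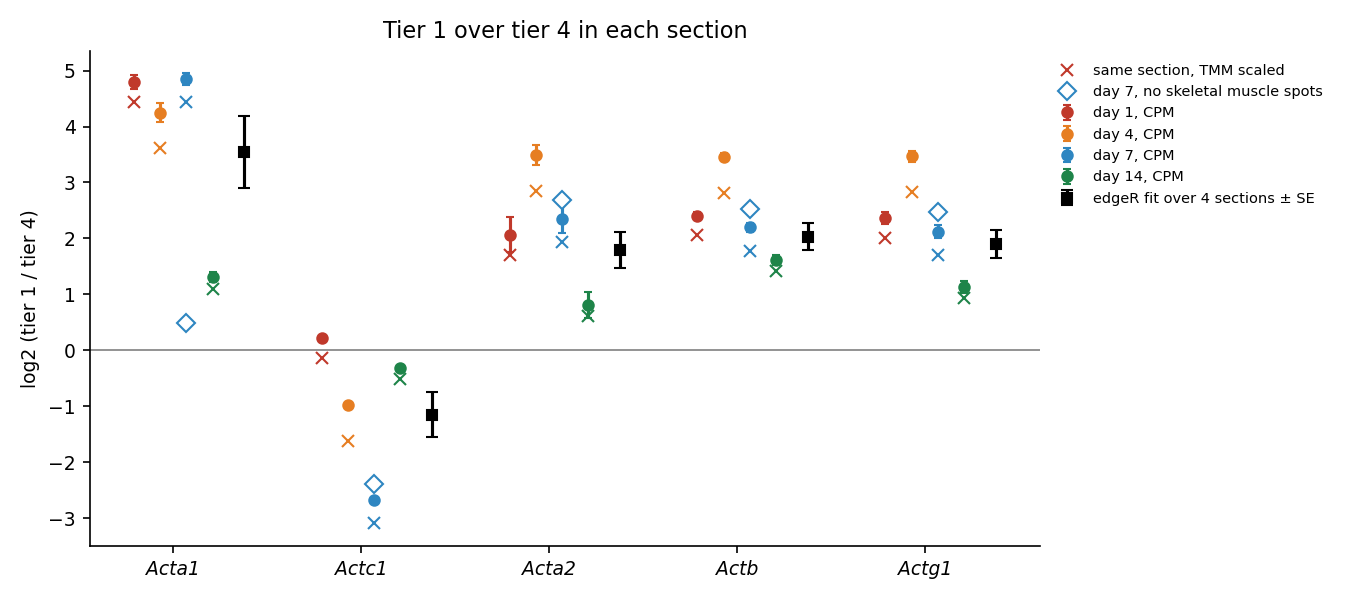
Log2 ratio of tier 1 to tier 4 for each actin in each section, in CPM with exact 95% counting intervals (circles), after TMM scaling (crosses) and for day 7 without the skeletal muscle spots (diamonds), beside the edgeR estimate over the 4 sections with its SE (squares). Acta1 reaches 3.54 in the fit, and Actc1 on day 1 lies above 0 in CPM and below 0 after TMM scaling.

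Between tiers 2 and 4, 168 genes (3.52%) differed and 159 (3.34%) were higher in tier 2. Acta1 was the 1 actin called, higher by 2.56 ± 0.62 on the log2 scale (edgeR adjusted p = 0.0440) and higher in 4 of 4 sections. The call was lost without the skeletal muscle spots (2.31, adjusted p = 0.0720), with total UMIs in place of TMM (2.65, adjusted p = 0.0521) and without the section of day 1 (2.09, adjusted p = 0.227), day 4 (2.14, adjusted p = 0.314) or day 7 (2.75, adjusted p = 0.344). Actb, Actg1, Acta2 and Actc1 stood at 0.82, 0.63, 0.59 and −0.18, with edgeR adjusted p of 0.0701, 0.147, 0.246 and 0.784. Between tiers 3 and 4 edgeR called 0 of 4767 genes (0%), with 27 at an unadjusted p under 0.05, and DESeq2 called 0, with 18. These contrasts share the libraries of tier 4.

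Genes that work with the actins were followed in 5 lists in the contrast of tiers 1 and 4, where the median of all 4767 genes was 0.05 on the log2 scale. Of 17 cardiac thin filament and Z-disc genes, 13 were lower in tier 1, 1 was higher and 3 did not pass, with a median of −1.23. Among all genes tested, 32.4% were lower and 35.2% higher. The ranking rests on cardiomyocyte genes, so lower levels of other such genes in tier 1 follow from its construction. The counts of this list are therefore not a separate result. Tpm1, cardiac tropomyosin, differed by −0.91, Tnnt2, cardiac troponin T, by −1.59 and Tnni3, cardiac troponin I, by −2.39 (edgeR adjusted p = 0.00420, 0.00124 and 0.000933). The 1 gene that was higher, named after its value was seen, was the actin-binding Xirp2 (1.00, edgeR adjusted p = 0.0496), and it no longer passed without the skeletal muscle spots (0.83, adjusted p = 0.178). The 3 that did not pass, also named after their values were seen, were Csrp3, Cfl2 and Xirp1 at −0.80, −0.43 and 0.01 (edgeR adjusted p = 0.145, 0.113 and 0.991). Actc1 at −1.15 thus lay near the median of its partner genes in the fit over the 4 sections. On day 1 alone Actc1 stood at 9690 CPM in tier 1 and 8320 in tier 4. The same tiers of day 1 held 3797 and 5957 CPM of Tnnt2, 2845 and 8497 of Tnni3, and 6759 and 6315.5 of Tpm1.

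Of 36 genes of cytoskeletal actin turnover and crosslinking 32 were tested, of which 29 were higher in tier 1, 2 were lower and 1 did not pass, with a median of 1.60. Among all genes tested, 35.2% were higher and 32.4% lower. Tmsb4x, thymosin β4, which binds monomeric actin, was higher by 1.62 and Pfn1, profilin, by 1.26 (edgeR adjusted p = 4.20e-05 and 0.000120). Gsn, gelsolin, which severs filaments, was lower at −1.97 (edgeR adjusted p = 0.00112). Myl12a, a regulatory light chain of nonmuscle myosin and the third most abundant gene of the list, was the 1 that did not pass, at −0.24 (edgeR adjusted p = 0.324). The other lower gene, named after its value was seen, was Ezr, ezrin, at −0.45 (edgeR adjusted p = 0.0343), which with total UMIs stood at −0.06. In CPM Ezr was higher in tier 1 than in tier 4 in 3 of 4 sections. With total UMIs, 29 genes of the list were called higher and 1 lower. In tier 2, 8 of the 32 were higher than in tier 4 and 0 lower, beside 3.34% higher among all genes tested.

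Of 12 smooth muscle contractile genes 6 were tested, and 3 of these were higher in tier 1, 1 was lower and 2 did not pass, beside 35.2% higher and 32.4% lower among all genes tested, so that these counts do not set the list apart. The median was 0.83. Tpm2, β-tropomyosin, was higher by 2.99 (2.01 without the skeletal muscle spots), Tagln, transgelin, by 2.35 and Myl9, a regulatory light chain, by 1.39 (edgeR adjusted p = 0.00118, 0.000202 and 0.000806). Smtn, smoothelin, was lower at −0.82 (edgeR adjusted p = 0.000586), whereas Des, desmin, which cardiomyocytes also make in quantity, stood at 0.28 (edgeR adjusted p = 0.383). Synpo2, synaptopodin-2, stood at −0.37 (edgeR adjusted p = 0.178) and was called lower without the skeletal muscle spots (−0.72, edgeR adjusted p = 0.00934). The Myh11 and Cnn1 genes were below 1000 UMIs and not tested.

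In the SRF list 3 of 8 genes were tested. Fhl1 was higher by 1.53 and Fhl2, another LIM-domain gene, lower at −2.34 (edgeR adjusted p = 0.00318 and 0.000464), and Srf itself stood at −0.22 (edgeR adjusted p = 0.314). Of the 4 fetal genes Nppa was higher by 3.19 (edgeR adjusted p = 0.00386), and Nppb, Ankrd1 and Myh7 stood at 1.56, 1.00 and −0.12 without passing (edgeR adjusted p = 0.122, 0.172 and 0.768). Without the skeletal muscle spots the counts of higher and lower genes were the same in the turnover, SRF and fetal lists, 0 and 13 in the thin filament list, and 3 and 2 in the smooth muscle list. Among all 4711 genes tested without those spots, 1690 were higher and 1553 lower.

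Across the 16 libraries of section and tier, Pearson correlations of log2(CPM + 1) were set between each actin and 4769 genes, as a description of points that share mice and library depth. Actb ran closest with Arhgdia (0.996) and with the Arp2/3 subunits Arpc1b (0.996) and Arpc4 (0.993). Actg1 ran closest with the ribosomal gene Rpl28 (0.990) and with Tpm3, cytoskeletal tropomyosin (0.989). Acta2 ran closest with Rnf130 (0.974) and Tagln (0.972), and Actc1 with Ppp1r14c (0.977) and the muscle gene Smpx (0.967). The closest genes of Acta1 were S100a16 (0.894) and Mybpc2, fast skeletal myosin-binding protein C (0.894). Without the skeletal muscle spots the 5 closest genes of Acta1 included the transcriptional repressor Bhlhe40 (0.896) and Mybpc2 (0.880). Between members the correlation was 0.971 for Actb and Actg1, and for Acta1 and Actc1 it moved from −0.486 to 0.037 without the skeletal muscle spots.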

How the data were processed

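The authors made the deposited UMI counts per gene and spot with Space Ranger 1.3.0 on mm10, per the labels and the methods, from images aligned by hand, and the counts were used as deposited. The labels name the first section day 1, as used here, while the results text of the study names another day. The members and gene lists were chosen with earlier results of these data known. Spots in which 8 hemoglobin genes made up over 1% of UMIs were left out. The study's manual removal of edge spots was not repeated. UMIs were summed per section and tier into 16 libraries. edgeR 4.0.16 (TMM, robust quasi-likelihood, section as a block) tested the 4767 genes with at least 1000 UMIs other than Myh6 and Myl2, with Benjamini-Hochberg adjustment, and was tested on simulated data, recovering 182 of 200 genes changed by 1 on the log2 scale in tier 1 against tier 4, with 7 false calls among 4769 genes. The simulated counts were independent between libraries, had 1 common dispersion and few changed genes, equally many up and down. In the data 67.7% of genes were called between tiers 1 and 4, so the simulation does not give the rate of false calls here. DESeq2 1.42.0 was an alternative. Poisson, Clopper-Pearson and conditional 95% intervals (scipy 1.17.1) cover counting error only. The edgeR p-values rest on the spread that remains after the section block, pooled over all 4 tiers (9 residual degrees of freedom). Tiers of 1 section come from the same mouse, so these p-values can overstate the support that 4 sections give. The permutation p-values rest on the 4 differences between tiers alone. The sections differ in day as well as in mouse. Named genes were the members, the most abundant tested genes of each list and the 5 genes most correlated with each member, with the exceptions marked in the text. A gene among those most correlated with Acta1 is not reported here.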

Additional observations from a re-analysis of the deposited data

Results flagged for a closer look

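In CPM, Actc1 ran in opposite directions on different days. Its log2 ratio of tier 1 to tier 4, in CPM, was 0.22 on day 1 against −0.98, −2.68 and −0.32 on days 4, 7 and 14, and that of tier 2 to tier 4 was 0.0684 on day 1 against −0.0850, −0.227 and −0.0234. The difference between days was not tested, with 1 mouse per day, and after TMM scaling tier 1 of day 1 stood at −0.14, on the same side as the other days. Tier 2 after TMM scaling stood at −0.0138, −0.239, −0.395 and 0.0370 on days 1, 4, 7 and 14. In tier 2 the day that ran the other way thus depended on the scaling.

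Acta2 in tier 2 stood above tier 4 on days 1, 4 and 7, with log2 ratios of 1.39, 1.02 and 0.99, and below it on day 14, at −0.54. This difference between days was not tested either.

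Actg2, the enteric smooth muscle actin and the sixth actin gene, was outside the members and was measured above the limit that a count of 0 allows, at 0.669, 13.9, 8.18 and 1.46 CPM on days 1, 4, 7 and 14. Of its 200 UMIs on day 4, 165 lay in tier 1, at 59.8 CPM.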

How the results depend on the processing

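The direction of each member's difference between tiers 1 and 4, of each isoform share and of the Acta1 to Actc1 ratio was the same under every alternative run. The calls of Acta1, Acta2, Actb and Actg1 in tier 1 were kept in all 17, with adjusted p up to 0.00738. Actc1 was no longer called with total UMIs (−0.75), with total UMIs leaving out Myh6 and Myl2 (−0.78), without the section block (−0.97), and with total UMIs and no skeletal muscle spots (−0.72, chosen after seeing the data), and it ranged from −1.56 to −0.66 over all alternatives and from −1.53 to −0.66 with 1 section left out. Acta1 in tier 2 was no longer called with total UMIs (2.65), without Myh6 and Myl2 (2.63), with genes of at least 10 UMIs (2.46), without the section block (2.40), without the skeletal muscle spots (2.31) and, chosen after seeing the data, with the spots ranked anew (2.27), without spots under 1000 UMIs (2.51) and with total UMIs and no skeletal muscle spots (2.41), and it ranged from 2.09 to 3.17 with 1 section left out.

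The number of genes called in tier 1 was 6752 with genes of at least 10 UMIs, where more genes were tested, and otherwise within 1.5 times of 3225. In tier 2 it was 67 with total UMIs, 64 without Myh6 and Myl2, 479 with DESeq2, 367 with genes of at least 10 UMIs, 0 without the section block (677 at an unadjusted p under 0.05), 106 without the skeletal muscle spots, and 50 with the spots ranked anew, 30 without spots under 1000 UMIs and 50 with total UMIs and no skeletal muscle spots, these 3 chosen after seeing the data. It ranged from 0 to 898 with 1 section left out, 898 being without day 14, and the cause was not tested. Of 130 values of whole sections, 41 moved past their counting interval and 2 by over 1.5 times, both for Acta1 on day 7 without the skeletal muscle spots (1753 to 494 CPM). No paired analysis by replicate number was possible because each day has 1 section and the section is itself the block. Depth limits Acta2 the most, which rests on 110 UMIs in tier 4 of day 1.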

Other observations

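The spots removed for hemoglobin, 261, 347, 336 and 655 on days 1, 4, 7 and 14, also held actin transcripts. Acta1 stood at 770, 772, 1159 and 510 CPM in them, against 2132, 663, 1753 and 679 in the spots kept. Without the skeletal muscle spots the kept spots of day 7 stood at 494, below the 1159 of the removed spots. The removed spots were not sorted by skeletal muscle genes. Actb stood at 1212, 1647, 1236 and 875 against 1509, 1389, 1426 and 501, so that the removed spots of day 14 were the richer in Actb by the widest margin.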
